A study of Mus musculus with 48 samples.

Results

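The 10 ADAMTS proteases of the vessel wall described here are Adamts1, Adamts2, Adamts4, Adamts5, Adamts7, Adamts8, Adamts9, Adamts10, Adamts12 and Adamts15, taken by name as 10 of the 18782 rows of the count table. Wild-type C57BL/6J mice were treated with β-aminopropionitrile (BAPN), which blocks the cross-linking of collagen and elastin, and RNA of the thoracic aorta was sequenced, with 1 library per mouse. Treatment began at an age of 3 weeks and lasted 28 days, with BAPN at 0.4% of the drinking water, which was left plain for controls. The groups were female controls (FeCon, n = 10), females without a detectable lesion after BAPN (FeNonAD, n = 8), females with dissection or aneurysm after BAPN (FeAAD, n = 9), and the matching male groups MaCon (n = 10), MaNonAD (n = 4) and MaAAD (n = 7). Mice that died of rupture gave no library, so the AAD groups hold survivors, and the AAD and NonAD mice were told apart by their outcome and not by a treatment.

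ADAMTS proteases are secreted zinc metalloproteases with thrombospondin repeats, which remodel extracellular matrix. Adamts1, Adamts4, Adamts5, Adamts8, Adamts9 and Adamts15 belong to the branch that cuts hyalectan proteoglycans such as versican and aggrecan, the water-holding filler between the elastic layers of the aortic wall. Adamts2 trims the amino-terminal propeptide from fibrillar procollagens, Adamts7 and Adamts12 are known to cut cartilage oligomeric matrix protein, and Adamts10 associates with fibrillin microfibrils. Tissue inhibitors of metalloproteases restrain these enzymes, furin-type convertases activate them, and the endocytic receptor Lrp1 clears several of them.

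The zinc-binding site is the catalytic centre of these proteases and allows a base by base comparison, so its 36 coding bases are shown for each member, from its longest protein-coding transcript in GENCODE M21 (GRCm38). Capitals mark the codons of the 3 zinc-binding histidines, the catalytic glutamate and the aspartate that follows.
Adamts1: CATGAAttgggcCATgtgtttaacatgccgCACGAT
Adamts4: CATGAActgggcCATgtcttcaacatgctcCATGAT
Adamts5: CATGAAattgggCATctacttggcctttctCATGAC
Adamts8: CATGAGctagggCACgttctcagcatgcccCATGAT
Adamts9: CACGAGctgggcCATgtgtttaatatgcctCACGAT
Adamts15: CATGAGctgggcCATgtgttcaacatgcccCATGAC
Adamts2: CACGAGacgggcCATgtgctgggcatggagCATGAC
Adamts7: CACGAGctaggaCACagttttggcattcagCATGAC
Adamts12: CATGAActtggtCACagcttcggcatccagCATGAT
Adamts10: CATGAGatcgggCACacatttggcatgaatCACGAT
Each transcript held this site 1 time. Of the 12 residues, 6 were shared by all 10 members, and pairs of members had 20 to 32 of the 36 bases in common. Adamts4 and Adamts15 were the closest pair, with 32 bases. The residues were the same in 4 of 45 pairs, among them Adamts1 with Adamts9, whose bases matched at 31 positions. Adamts1 (chr16:85793827-85803113) and Adamts5 (chr16:85856173-85901828) are neighbours on the minus strand, and Adamts15 (chr9:30899155-30922452, minus strand) lies beside Adamts8 (chr9:30942562-30963838, plus strand).

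Upstream sequence was held for 4 of the 10 members. It is shown for Adamts9, which was lower after BAPN in females, and for Adamts12, which was higher in AAD of both sexes, as the 250 bases before the RefSeq start in GRCm38.p6. Capitals mark any match, on either strand, to AP-1 (TGANTCA), the E-box (CACGTG), the GC box (GGGCGG), the TATA box (TATAAA) or the CCAAT box (CCAAT).
Adamts9, chr6:92943535-92943784, minus strand: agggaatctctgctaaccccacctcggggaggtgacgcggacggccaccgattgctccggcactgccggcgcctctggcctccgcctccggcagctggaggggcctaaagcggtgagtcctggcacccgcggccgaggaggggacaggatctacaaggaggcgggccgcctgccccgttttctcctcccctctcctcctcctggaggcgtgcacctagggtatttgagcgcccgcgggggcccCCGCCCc
Adamts12, chr15:11064523-11064772, plus strand: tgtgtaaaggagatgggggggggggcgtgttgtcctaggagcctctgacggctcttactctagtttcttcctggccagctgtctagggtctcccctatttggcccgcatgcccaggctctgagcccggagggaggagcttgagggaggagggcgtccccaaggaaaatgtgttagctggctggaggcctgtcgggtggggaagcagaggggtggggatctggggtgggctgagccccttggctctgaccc
The Adamts9 window held 1 GC box, on the opposite strand, and none of the other letters. The Adamts12 window held none of them. Of 32851 such windows of the mouse genome, 32.7% held a GC box, 33.8% a CCAAT box, 12.4% a TATA box, 6.75% the AP-1 letters and 6.02% the E-box. The matches did not overlap. Bases G and C made up 71.2% of the Adamts9 window and 63.2% of the Adamts12 window.

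Library totals ranged from 13548015 to 17281268 counts, and the smallest count of any member in any library was 13. All 10 members passed edgeR's filter on low counts, by which 14431 genes were tested. Levels are given as CPM, which are counts corrected for library size with TMM factors. Smooth muscle, fibroblast and endothelial markers were detected in every group, as the label of thoracic aorta requires. All 8 smooth muscle markers fell and all 8 macrophage markers rose between controls and AAD in both sexes. The summed macrophage level was 206 to 487 CPM in FeCon and 524 to 5160 CPM in FeAAD, and 171 to 451 CPM in MaCon and 704 to 3315 CPM in MaAAD. The summed smooth muscle level was 30531 to 52224 CPM in FeCon, 13942 to 31893 CPM in FeAAD, 27852 to 60211 CPM in MaCon and 11833 to 29449 CPM in MaAAD. The part of these shifts in the results below was not tested, and in a bulk aorta fewer cells of a type cannot be told apart from less RNA per cell. Some libraries stood apart. FeCon7 and FeCon9 had immediate early genes, which respond within minutes to handling or stimulation, at a sum of 2435 and 2299 CPM, against 398 to 794 CPM in the other FeCon libraries. FeAAD5 and FeAAD9 had neutrophil markers at 888 and 202 CPM, against 26.4 CPM or less in the other FeAAD libraries. MaAAD7 had the highest macrophage sum of its group and heart muscle markers at 411 CPM, against 104 CPM or less in the other MaAAD libraries. In FeCon10 heart muscle markers summed to 651 CPM, where no other FeCon library exceeded 172 CPM. FeAAD2 had red cell markers at 26918 CPM, against 2134 CPM or less in the other FeAAD libraries. Heat shock genes, which also respond to handling, differed between the male groups. All 4 fell in MaAAD against MaCon, with sums of 128 to 242 CPM and 368 to 3598 CPM, and 2 fell in MaNonAD. All 4 were higher in MaCon than in FeCon (326 to 622 CPM), none was called in FeAAD against FeCon, and all 4 were called in the sex difference of the AAD response. In FeNonAD they were high in 3 of 8 libraries, given with Adamts4 below. Their part in the member results was not tested. Member calls that change without a library named here are given with and without it.

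Over the 48 libraries the members spanned a wide range of level per kilobase of the longest transcript. Adamts10 (73.5 ± 16.5 CPM per kb, SD, n = 48) and Adamts2 (70.3 ± 11.2 CPM per kb) were highest, and Adamts1 followed at 46.6 ± 21.6 CPM per kb. Adamts8 (11.7 ± 2.98), Adamts15 (10.0 ± 4.29), Adamts5 (6.11 ± 1.26) and Adamts9 (4.72 ± 2.65 CPM per kb) formed the middle of the order. Adamts4 (1.85 ± 1.64), Adamts12 (1.59 ± 0.896) and Adamts7 (1.31 ± 0.596 CPM per kb) were lowest. Adamts10 exceeded Adamts2 in 27 of 48 libraries and Adamts4 exceeded Adamts12 in 22 of 48, so these neighbours did not differ beyond their spread. Adamts1 exceeded Adamts8 in all 48 libraries, the clearest step in the order. Adamts12, Adamts4 and Adamts7, which rose in FeAAD, were the 3 members with the lowest level per kilobase.

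**Figure D1:**
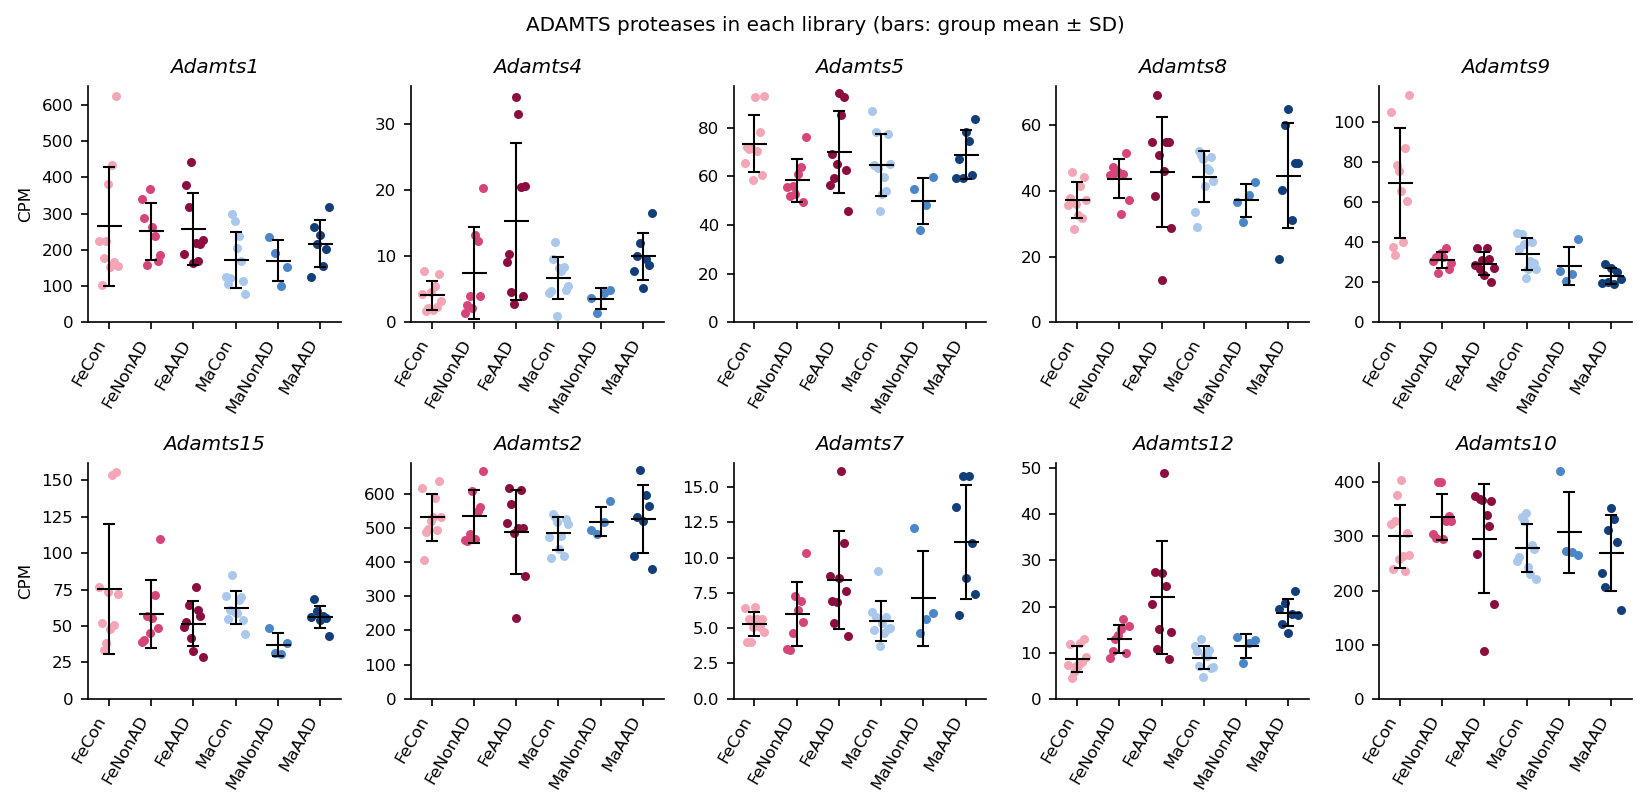
CPM of each member (y axis, 1 panel per gene) in the 48 libraries by group (x axis); points are libraries and black bars the group mean ± SD. In MaAAD, Adamts12 lies at 14.3 CPM or higher, above every MaCon library, and in FeCon, Adamts9 reaches 113 CPM while no library of another group exceeds 44.7 CPM.

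A first comparison asks which of the proteases differ between dissected and control aortas. In FeAAD, Adamts12, Adamts4 and Adamts7 rose and Adamts9 and Adamts15 fell against FeCon, at an adjusted p under 0.05 (edgeR's quasi-likelihood test, Benjamini-Hochberg over all genes tested). These were 3 members higher, where 23.8% of all tested genes were higher, and 2 lower, where 20.6% were lower, so the members were called about as often as other genes. When the log2 fold change also had to reach 1 in either direction, 3 members remained (Adamts12, Adamts4 and Adamts9), against 12.7% of all genes. In MaAAD, Adamts12 and Adamts7 rose and Adamts9 fell against MaCon, where 18.9% of genes were higher and 16.1% lower. Adamts12 and Adamts7 also passed the fold threshold, which 11.4% of all genes passed. The median log2 fold change of the 10 members was -0.03 in females and 0.10 in males, beside 0.00 and -0.03 over all genes.

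**Figure D2:**
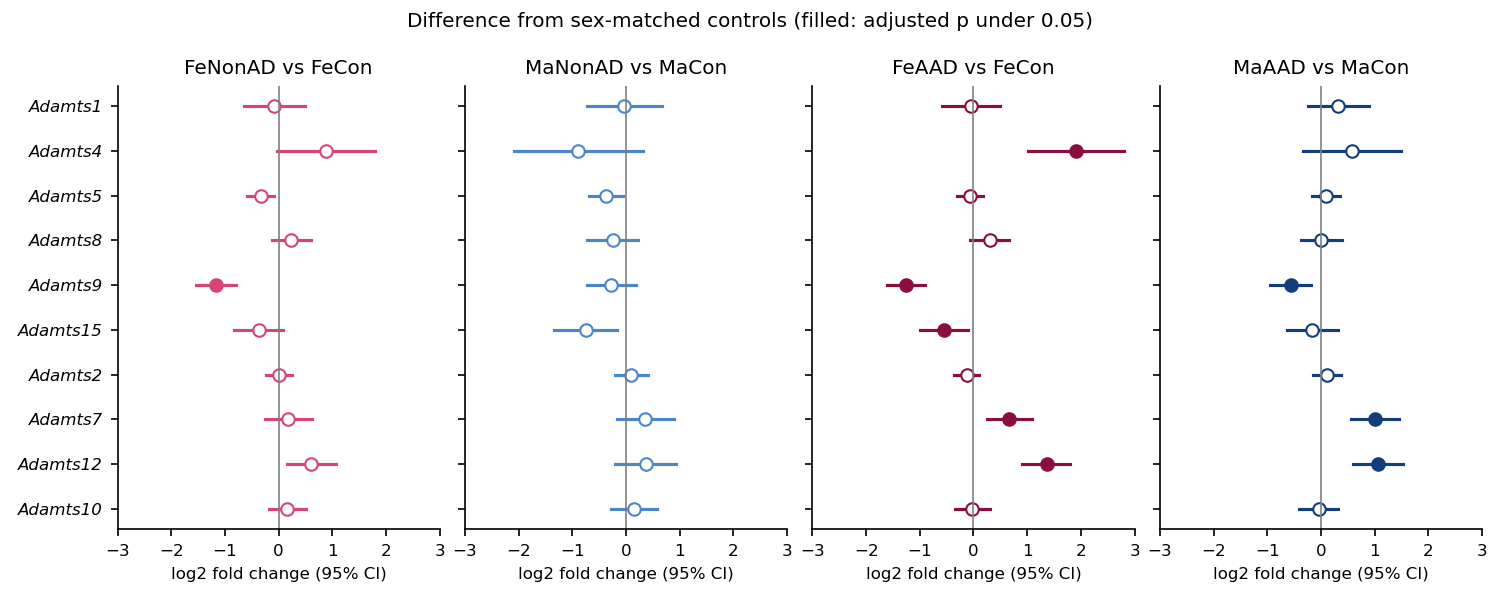
Log2 fold change of each member (points, with 95% confidence intervals as lines) in BAPN groups against controls of the same sex; filled points have an adjusted p under 0.05. In both AAD panels Adamts7 and Adamts12 lie to the right of 0 and Adamts9 to the left, while in the MaNonAD panel no point is filled.

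Adamts12 showed the same direction in every comparison of BAPN mice with controls. In FeCon it ranged from 4.56 to 12.9 CPM with a median of 7.60, in FeNonAD from 8.93 to 17.3 CPM with a median of 13.4, and in FeAAD from 8.54 to 49.0 CPM with a median of 20.6. The groups overlapped, but 4 FeAAD libraries, at 24.5 CPM or more, exceeded all 39 libraries of the other groups. Its log2 fold change was 1.36 ± 0.22 (SE) in FeAAD against FeCon (adjusted p = 2.7e-06) and 0.75 ± 0.23 in FeAAD against FeNonAD (adjusted p = 0.019, or 0.0937 in a fit of those groups alone). The difference of 0.60 ± 0.23 in FeNonAD against FeCon missed the threshold (adjusted p = 0.0646), but passed with the compared groups alone (0.61, adjusted p = 0.0309) and without FeCon7 and FeCon9 (0.79, adjusted p = 0.0225). In males the values were 4.71 to 12.9 CPM with a median of 9.45 in MaCon, 7.70, 12.0, 12.8 and 13.5 CPM in MaNonAD, and 14.3 to 23.4 CPM with a median of 18.4 in MaAAD. MaAAD overlapped neither of the other male groups. Adamts12 was 1.06 ± 0.23 higher on the log2 scale in MaAAD than in MaCon (adjusted p = 0.000294), and 0.70 ± 0.31 higher than in MaNonAD, which missed the threshold (adjusted p = 0.195). The difference of 0.37 ± 0.28 in MaNonAD against MaCon missed it too (adjusted p = 0.659).

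Adamts7, the relative of Adamts12 that also cuts cartilage oligomeric matrix protein, was low throughout. In MaCon it ranged from 3.73 to 9.05 CPM with a median of 5.18, in MaNonAD it was 4.65, 5.65, 6.08 and 12.1 CPM, and in MaAAD it ranged from 5.96 to 15.8 CPM with a median of 11.0. In females the median was 5.37 CPM in FeCon (4.01 to 6.51), 5.87 CPM in FeNonAD (3.46 to 10.3) and 7.63 CPM in FeAAD (4.47 to 16.1). All neighbouring groups overlapped. The log2 fold change from controls was 1.01 ± 0.22 in MaAAD (adjusted p = 0.000302) and 0.67 ± 0.21 in FeAAD (adjusted p = 0.00828). Adamts7 and Adamts12 deviated from their group means together, with r = 0.56 over 48 libraries, which share depth and tissue composition.

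Adamts4, an aggrecanase, had the widest spread of the members relative to its mean over the 48 libraries. In FeCon it ranged from 1.77 to 7.75 CPM with a median of 3.77, in FeNonAD from 1.36 to 20.3 CPM with a median of 4.01, and in FeAAD from 2.82 to 34.1 CPM with a median of 10.3. It rose by 1.91 ± 0.44 on the log2 scale in FeAAD against FeCon (adjusted p = 0.000456), and by 1.54 without FeAAD5 and FeAAD9 (adjusted p = 0.00636). In males it was 0.914 to 12.2 CPM in MaCon with a median of 6.64, 1.40, 3.71, 4.40 and 4.88 CPM in MaNonAD, and 5.22 to 16.5 CPM in MaAAD with a median of 9.64. MaAAD lay wholly above MaNonAD and overlapped MaCon. No male difference passed in the fit of all libraries. MaAAD differed by 0.58 ± 0.46 from MaCon (adjusted p = 0.337) and by 1.47 ± 0.63 from MaNonAD (adjusted p = 0.188), and MaNonAD differed by -0.89 ± 0.60 from MaCon (adjusted p = 0.599).

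The gene whose deviations from group means were most like those of Adamts4 was Arntl, the clock gene that encodes Bmal1 and swings over the day, with r = 0.89 over 48 libraries. The next was Leo1, with r = 0.86. In FeNonAD the 3 libraries with Arntl at 20 CPM or more had Adamts4 at 12.3 to 20.3 CPM, and the other 5 had 1.36 to 4.02 CPM. The same 3 libraries (FeNonAD5, FeNonAD6 and FeNonAD8) had summed heat shock genes at 976 to 1181 CPM, against 191 to 353 CPM in the other 5, and the part of heat shock genes in this split was not tested. In FeCon the 6 libraries with Arntl at 20 CPM or more had Adamts4 at 3.28 to 7.75 CPM, and the other 4 had 1.77 to 2.39 CPM, with heat shock sums of 454 to 622 CPM and 326 to 381 CPM. In FeAAD the values were 20.5 to 31.6 CPM in 3 such libraries and 2.82 to 34.1 CPM in the other 6, of which FeAAD5 was the highest. FeAAD5 had Arntl at 14.1 CPM, against 6.9 CPM or less in the rest of those 6. Heat shock sums there were 603 CPM in FeAAD6 and 903 CPM in FeAAD9, with Adamts4 at 31.6 and 20.7 CPM. FeAAD5 had the lowest sum of its group, at 182 CPM, and FeAAD7, with Adamts4 at 20.5 CPM, had 243 CPM. The rest of FeAAD had 229 to 347 CPM, with Adamts4 at 2.82 to 10.3 CPM. In MaCon the sums were 1235 to 3598 CPM in MaCon4, MaCon6, MaCon7 and MaCon8, with Adamts4 at 7.83 to 12.2 CPM. MaCon2 had 1351 CPM with Adamts4 at 4.78 CPM, and MaCon3 had 378 CPM with 9.62 CPM. The part of heat shock genes was not tested in either group. The limit of 20 CPM was chosen after these values were seen. Arntl itself was unevenly spread over the groups, as 9 of 10 MaCon libraries had 20 CPM or more and none of the MaNonAD and MaAAD libraries did. Its log2 fold change in MaAAD against MaCon was -2.78 ± 0.73 (adjusted p = 0.00236), while that between FeAAD and FeCon was -0.72 ± 0.61 (adjusted p = 0.359). MaCon5, the control male with Arntl at 1.62 CPM, had Adamts4 at 0.914 CPM. The labels name no time of day for the collection of tissue. The methods of the study place the sampling of feces in a morning window of 1 day, directly before the mice were killed.

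A fit with the log2 Arntl level of each library as a further term was added after these values were seen. Arntl was taken because, of all genes, it was most like Adamts4 within groups, so a smaller spread of Adamts4 was built into this fit. Its values for Adamts4 are therefore given as a description, with no test. Adamts4 differed from controls by 2.29 on the log2 scale in FeAAD, 2.34 in MaAAD, 1.17 in FeNonAD and 0.92 in MaNonAD. Between AAD and NonAD it differed by 1.11 in females and 1.42 in males. The same holds for Adamts12, the member most like Adamts4 within groups (r = 0.71). It differed from controls by 0.87 in FeNonAD and 0.98 in MaNonAD, beside 0.60 and 0.37 without this term. The fall of Adamts9 in MaAAD no longer passed (-0.38 ± 0.21, adjusted p = 0.144), and neither did that of Adamts15 in FeAAD (-0.32 ± 0.20, adjusted p = 0.191). The share of all genes called in this fit was 46.3% for FeAAD and 38.0% for MaAAD against controls, 17.7% for FeNonAD and 1.91% for MaNonAD against controls, and 19.1% and 2.99% for AAD against NonAD in females and males. The male values rest on a slope shared by all groups, since 1 control male alone had Arntl as low as the BAPN males. A response of Arntl to BAPN and a difference in the hour of collection cannot be told apart here.

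**Figure D3:**
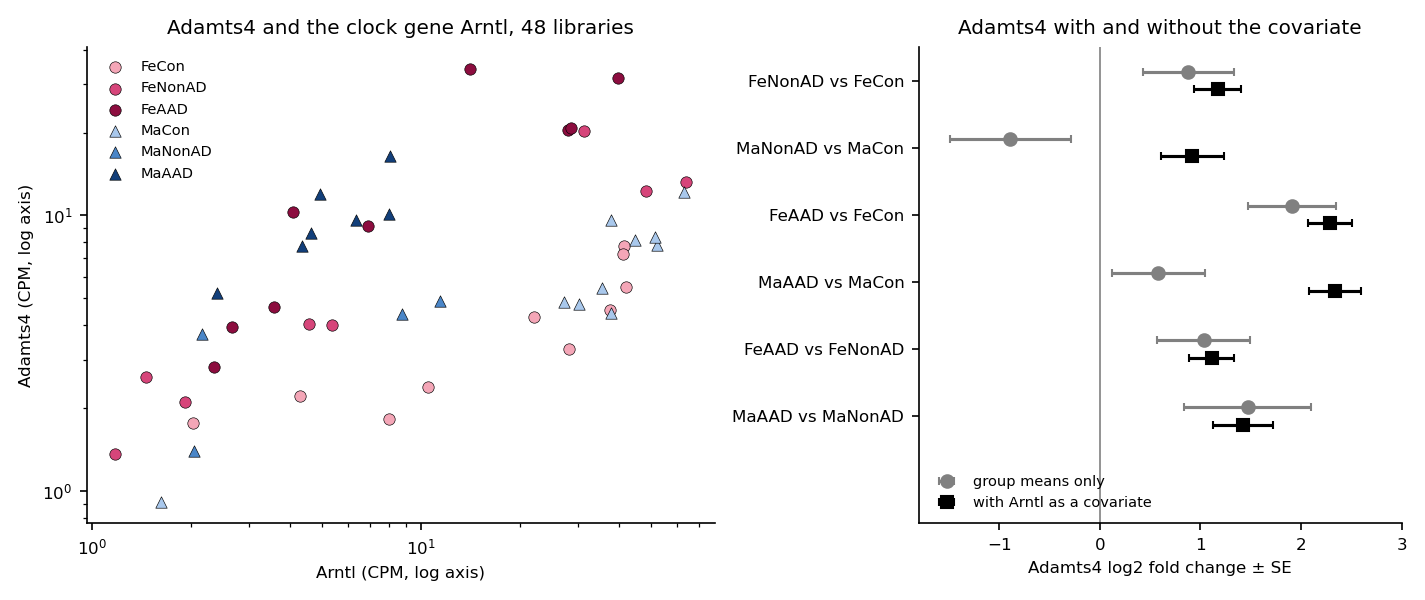
Left, Adamts4 against Arntl in the 48 libraries (both in CPM on log axes; circles are females, triangles males). Right, log2 fold change of Adamts4 ± SE with group means only (grey circles) and with Arntl as a covariate (black squares), whose shorter bars follow in part from the choice of Arntl by its likeness to Adamts4; the MaAAD difference from MaCon moves from 0.58 to 2.34.

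Adamts9, a versican-cutting protease, fell after BAPN in females whether or not a lesion was found. FeCon ranged from 33.6 to 113 CPM with a median of 70.4, FeNonAD from 24.7 to 37.0 CPM with a median of 31.4, and FeAAD from 20.0 to 37.1 CPM with a median of 28.5. In 7 FeCon libraries Adamts9 was 60.2 CPM or more, above all 38 libraries of the other groups, and the FeCon libraries below that were FeCon2, FeCon3 and FeCon7. The log2 fold change was -1.17 ± 0.18 in FeNonAD (adjusted p = 3.19e-05) and -1.25 ± 0.17 in FeAAD (adjusted p = 1.54e-07), and FeAAD and FeNonAD differed by -0.09 ± 0.18 (adjusted p = 0.775). These contrasts share the FeCon libraries. Without FeCon10, which held the highest Adamts9, they were -1.06 and -1.15. Adamts9 was the single member called in FeNonAD against FeCon, where 6.87% of genes were higher, 7.67% lower, and 2.75% passed the fold threshold too.

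In males Adamts9 started from a lower level. MaCon ranged from 22.1 to 44.7 CPM with a median of 33.7, MaNonAD was 20.6, 24.2, 25.4 and 41.7 CPM, and MaAAD ranged from 19.0 to 29.1 CPM with a median of 21.4. All 3 male groups overlapped. The difference of -0.56 ± 0.19 in MaAAD against MaCon passed (adjusted p = 0.0172), and that of -0.28 ± 0.23 in MaNonAD did not (adjusted p = 0.686). MaCon was 1.04 ± 0.17 lower than FeCon on the log2 scale (adjusted p = 5.08e-05), the single member called between control sexes, where 6.38% of genes were higher in males, 7.92% lower, and 1.51% passed the fold threshold as well. The 95% confidence interval of the difference between MaAAD and FeAAD was -0.72 to 0.04.

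Adamts15 and Adamts1 moved with the immediate early genes in a pair of control libraries. FeCon7 and FeCon9 had Adamts15 at 154 and 156 CPM, above all 38 libraries of other groups, and the other FeCon libraries ranged from 33.4 to 76.5 CPM. FeAAD ranged from 29.0 to 76.7 CPM with a median of 52.5, and overlapped the other FeCon libraries, with FeAAD5 and FeAAD9 below their lowest and FeAAD6 above their highest. Adamts15 fell by 0.55 on the log2 scale in FeAAD against FeCon (SE 0.22, adjusted p = 0.0374), and without FeCon7 and FeCon9 the difference was -0.11 (adjusted p = 0.655). It missed the threshold without FeAAD2 as well (-0.55, adjusted p = 0.052), and without FeAAD5 and FeAAD9 (-0.39, adjusted p = 0.187). In males it was 44.8 to 85.3 CPM in MaCon with a median of 60.1, 30.5, 31.7, 38.2 and 48.3 CPM in MaNonAD, and 43.4 to 68.4 CPM in MaAAD with a median of 55.9. No male difference of Adamts15 passed the threshold in the fit of all libraries. The largest was -0.75 ± 0.29 in MaNonAD against MaCon (adjusted p = 0.253), which passed with the compared groups alone (-0.74, adjusted p = 0.0307).

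Adamts1, the most abundant protease of the hyalectan branch, had its highest values in FeCon9, at 625 CPM, and FeCon7, at 435 CPM, within FeCon. The other FeCon libraries ranged from 104 to 382 CPM. In FeAAD it ranged from 164 to 443 CPM with a median of 218, and its log2 fold change from FeCon was -0.04 ± 0.27 (adjusted p = 0.923), with a 95% confidence interval of -0.58 to 0.50. Without FeCon7 and FeCon9 the difference was 0.38 (adjusted p = 0.231). FeAAD3 had the highest immediate early sum of all, at 3105 CPM, with Adamts1 at 318 CPM and Adamts15 at 64.4 CPM, within the range of the other FeAAD libraries. The part of handling in these values was not tested. Sgk1, a kinase induced by serum and glucocorticoids, was among the 2 genes most like Adamts1, with r = 0.81, after Zdhhc23 with r = 0.83.

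**Figure D4:**
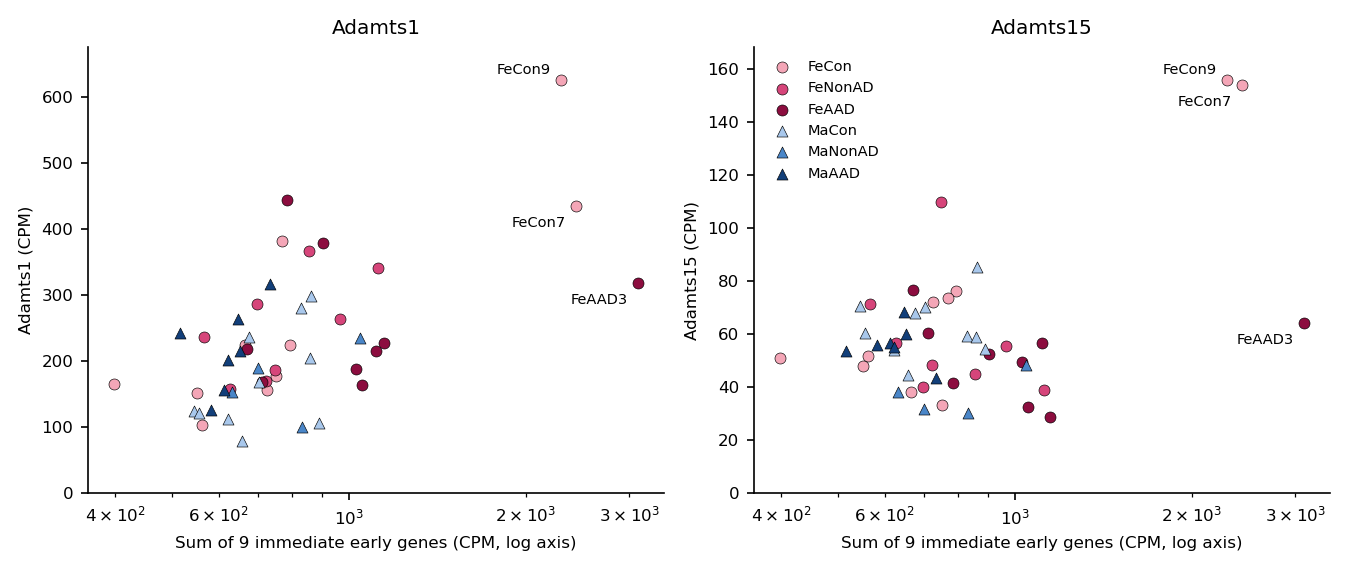
Adamts1 (left) and Adamts15 (right) in CPM against the summed CPM of 9 immediate early genes (log x axis), 1 point per library. FeCon7 and FeCon9 lie at the upper right of both panels, with Adamts15 at 154 and 156 CPM, while FeAAD3, with the highest sum of 3105 CPM, has Adamts15 at 64.4 CPM.

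Adamts5 was lowest in the NonAD groups, though no difference passed in the fit of all libraries. Medians were 71.6 CPM in FeCon, 55.7 CPM in FeNonAD and 65.0 CPM in FeAAD, and 64.0, 51.4 and 67.1 CPM in the male groups in the same order. Its log2 fold change from controls was -0.33 ± 0.12 in FeNonAD (adjusted p = 0.0644) and -0.37 ± 0.16 in MaNonAD (adjusted p = 0.302), and MaAAD exceeded MaNonAD by 0.46 ± 0.17 (adjusted p = 0.112). Without FeNonAD8, the FeNonAD library with the highest Adamts5, the female difference was -0.40 (adjusted p = 0.0336), and without FeAAD5 and FeAAD9, which are not part of this contrast, it was -0.33 (adjusted p = 0.0397). With the compared groups alone it was also -0.33 (adjusted p = 0.0332).

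Adamts8, Adamts2 and Adamts10 did not pass the threshold in any comparison of the fit of all libraries. The mean of Adamts8 was 37.2 ± 5.55 CPM (SD, n = 10) for FeCon, and for FeAAD it was 45.7 ± 16.8 CPM (SD, n = 9). Without FeAAD5 and FeAAD9 its log2 fold change went from 0.30 to 0.52 (adjusted p = 0.18 and 0.00447), and FeAAD5 held the lowest Adamts8 of all libraries, at 12.8 CPM. Adamts2, the procollagen protease, had group means between 484 and 533 CPM, and the 95% confidence interval of its log2 fold change from controls was -0.36 to 0.11 in FeAAD and -0.14 to 0.37 in MaAAD. Adamts10 had group means between 270 and 336 CPM, with intervals of -0.35 to 0.31 in FeAAD and -0.40 to 0.31 in MaAAD. FeAAD5, the library with the highest macrophage sum, had the lowest Adamts2 (235 CPM) and Adamts10 (88.3 CPM) and the highest Adamts4 (34.1 CPM) of all libraries. FeAAD9, with a macrophage sum of 891 CPM, had Adamts2 at 360 CPM and Adamts10 at 176 CPM. Fibroblast markers summed to 2481 CPM in FeAAD5 and 1148 CPM in FeAAD9, against 3599 CPM or more in the other FeAAD libraries. The part of cell types in these values was not tested.

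The second comparison asks what changed in aortas that had met BAPN without a lesion, and the third what sets lesions apart from these. Against MaCon, no member was called in MaNonAD in the edgeR fit of all libraries, where 0.624% of genes (90) were called. With the compared groups alone Adamts15 and 274 genes were called. Adamts5 and Adamts15 were lower at an unadjusted p under 0.05, as were 5.78% of all genes, and DESeq2 called 0 members and 165 of 15023 genes. In FeAAD against FeNonAD, Adamts12 was the 1 member called, where 13.2% of genes were higher and 5.00% lower, and 0 members passed the fold threshold, against 7.04% of genes. Without FeNonAD8, which had the highest Adamts4 and Adamts7 of its group, Adamts4 (1.43, adjusted p = 0.0241) and Adamts7 (0.64, adjusted p = 0.0345) passed as well. In MaAAD against MaNonAD the edgeR fit of all libraries called 0 members, where 0.409% of genes were called. Adamts4, Adamts5, Adamts7 and Adamts12 were higher at an unadjusted p under 0.05 in MaAAD against MaNonAD, where 12.3% of all genes were, and in FeAAD against FeNonAD, where 19.8% were. In the male comparison DESeq2 called 0 members and 769 of 15023 genes. Without single MaNonAD libraries edgeR called 0 to 524 genes in this comparison and still 0 members. The MaNonAD group held 4 mice.

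The fourth comparison is between the sexes. MaNonAD and FeNonAD differed in 0 members by edgeR (0.0624% of genes), with 1 member (Adamts15) at an unadjusted p under 0.05, beside 6.48% of genes. MaAAD and FeAAD differed in 0 members (0.0901% of genes), with 0 at an unadjusted p under 0.05, beside 2.22% of genes. DESeq2 called 0 members in both. The sex difference of the response to BAPN, male response minus female response, was tested as an interaction. By edgeR it was called for 0 members when NonAD was set against controls (0.416% of genes), 0 when AAD was set against controls (1.34%) and 0 when AAD was set against NonAD (0%). DESeq2 also called 0 members in each, with 183 of 14662, 417 of 15023 and 1 of 18635 genes. At an unadjusted p under 0.05 in edgeR the first 2 held Adamts4 and Adamts9, beside 12.1% and 15.4% of all genes, and the last held Adamts15, beside 1.03%. For Adamts9 the AAD response differed by 0.70 ± 0.25 on the log2 scale (adjusted p = 0.151), and for Adamts4 by -1.33 ± 0.64 (adjusted p = 0.306). With Arntl as a covariate the difference for Adamts4 was 0.05 and that for Adamts9 0.81 ± 0.26 (adjusted p = 0.0971).

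Genes of the same pathway are given by counts, to be read against the share of all genes called, which was 23.8% higher and 20.6% lower in FeAAD and 18.9% and 16.1% in MaAAD against controls. Of 19 substrates tested, 14 rose and none fell in FeAAD, and 15 rose and none fell in MaAAD, with medians of 1.14 and 1.00 on the log2 scale. Acan, the proteoglycan aggrecan, rose by 1.55 ± 0.18 in FeAAD (adjusted p = 2.83e-09) and by 1.40 ± 0.19 in MaAAD (adjusted p = 1.17e-07). It was higher in the NonAD groups too, by 1.02 ± 0.18 for FeNonAD (adjusted p = 0.000149) and 1.22 ± 0.21 for MaNonAD (adjusted p = 0.000988). Vcan, which encodes versican, was at -0.08 ± 0.15 in FeAAD (adjusted p = 0.688) and at 0.46 ± 0.16 in MaAAD (adjusted p = 0.0239). The proteoglycan genes Bgn, Dcn and Ncan passed in neither AAD group against controls. These and Vcan lie outside the naming rule and were added after their values were seen. Thbs1, the matricellular protein thrombospondin-1, rose by 3.62 ± 0.39 in FeAAD (adjusted p = 7.86e-10) and by 3.32 ± 0.39 in MaAAD (adjusted p = 1.56e-08). Col2a1, the collagen of cartilage, passed in both sexes (adjusted p = 1.94e-06 and 0.000129) but was uneven within the AAD groups, at 46.4 ± 71.1 CPM (SD) in FeAAD and 16.2 ± 21.2 CPM in MaAAD against 0.945 ± 0.706 CPM in FeCon and 0.747 ± 0.634 CPM in MaCon. Fbn2, a fibrillin best known from developing tissue, had means of 1.90 counts per library in FeCon and 2.40 in MaCon (0.131 ± 0.116 and 0.158 ± 0.178 CPM), and 4.52 ± 5.3 CPM in FeAAD and 2.77 ± 2.85 CPM in MaAAD. It could be tested only through the groups in which it is high, so no test of it is given, and without it 13 of 18 substrates rose in FeAAD and 14 of 18 in MaAAD. Acan and Col2a1 also stood on a list of 7 cartilage markers, of which 4 rose in FeAAD, and 3 rose and 1 fell in MaAAD, and the part of cartilage cells was not tested.

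Of 12 inhibitors, activators and clearance genes, 2 rose and 3 fell in FeAAD, and 2 rose and 2 fell in MaAAD, near the share over all genes. Timp1, a metalloprotease inhibitor, rose by 4.35 ± 0.55 in FeAAD (adjusted p = 1.86e-08) and by 3.90 ± 0.55 in MaAAD (adjusted p = 3.43e-07). It was uneven in AAD, at 518 ± 699 CPM (SD) in FeAAD and 364 ± 285 CPM in MaAAD. Controls had 25.3 ± 5.66 CPM in FeCon and 24.4 ± 5.67 CPM in MaCon. Timp2 (0.06 ± 0.14 and 0.12 ± 0.15) and Timp3 (-0.03 ± 0.15 and 0.01 ± 0.16) passed in neither FeAAD nor MaAAD. Timp4 was at -0.56 ± 0.27 in FeAAD (adjusted p = 0.0956) and at -0.75 ± 0.30 in MaAAD (adjusted p = 0.0428). The convertases went in both directions. Pcsk5 rose by 0.54 ± 0.14 and 0.46 ± 0.15, while Furin (-0.24 ± 0.10, adjusted p = 0.039) and Pcsk6 (-0.58 ± 0.23, adjusted p = 0.036) fell in FeAAD. In MaAAD Furin was at 0.13 ± 0.10 (adjusted p = 0.331) and Pcsk6 at -0.51 ± 0.25 (adjusted p = 0.103). Timp2, Timp3, Timp4, Furin and Pcsk6 lie outside the naming rule and were added after their values were seen. Fbln1, a cofactor of Adamts1, fell by 0.72 in FeAAD and by 0.43 in MaAAD. Of 8 genes of hyaluronan and link proteins, 4 rose and 1 fell in each sex. The hyaluronan synthases were split, with Has2 higher by 2.91 ± 0.59 in FeAAD and 2.12 ± 0.61 in MaAAD, Has1 higher by 1.26 ± 0.46 and 2.33 ± 0.52, and Has3 lower at -2.19 ± 0.34 and -1.24 ± 0.37. Has2 was low in controls, at 0.82 ± 0.616 CPM (SD) in FeCon and 0.875 ± 0.503 CPM in MaCon. In FeAAD and MaAAD it was uneven, at 6.25 ± 9.91 and 3.84 ± 4.57 CPM. Has1 had 3.73 ± 3.21 CPM in FeCon and 1.13 ± 0.385 CPM in MaCon, against 8.96 ± 6.86 and 5.72 ± 3.68 CPM in AAD. Tnfaip6, a hyaluronan-binding protein of inflamed tissue, rose by 1.83 ± 0.35 and 1.46 ± 0.36.

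Of 7 ADAMTS-like genes, which lack the protease domain, 1 rose and 2 fell in FeAAD, and 3 fell in MaAAD. Adamtsl2 fell in both (-1.40 ± 0.25 and -0.83 ± 0.27), as did Thsd4 (-0.97 ± 0.23 and -0.78 ± 0.25), and both encode proteins of fibrillin microfibrils. Of 7 other ADAMTS proteases tested, 1 rose in FeAAD and 2 in MaAAD. Among those called in MaAAD was Adamts20, with a mean of 8.10 counts per library in MaCon, and without it 1 of 6 rose. Adamts3, a procollagen protease like Adamts2, rose by 0.56 ± 0.17 in FeAAD (adjusted p = 0.00549) and by 0.86 ± 0.18 in MaAAD (adjusted p = 0.000151). Adamts18 and Adamts19, at no more than 5 and 19 counts in any library, were not tested.

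Within groups the members did not move as one. Over the 45 pairs of members the median r of deviations from group means was 0.22, from -0.43 for Adamts4 with Adamts10 to 0.71 for Adamts4 with Adamts12. The neighbours Adamts1 and Adamts5 had r = -0.36, and the neighbours Adamts8 and Adamts15 had r = 0.26. The genes most like the other members were Dock6 for Adamts10 (r = 0.93), Lrp1 for Adamts2 (r = 0.86), Col5a3 for Adamts12 (r = 0.83), Pygm for Adamts8 (r = 0.83), Glyr1 for Adamts9 (r = 0.83), Man1a for Adamts5 (r = 0.82), Lum for Adamts7 (r = 0.77) and Sash1 for Adamts15 (r = 0.73). All are over the same 48 libraries, which share depth and tissue composition.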

How the data were processed

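RNA of the thoracic aorta was sequenced from 48 mice. The authors deposited expected counts per gene for 18782 genes, and the submitters' processing notes name Bowtie2, RSEM 1.3.1 and GRCm39. Of these values, 4.99% were not whole numbers, as reads had been shared between genes, and all were rounded. Members had such values in 1 gene, Adamts2. The table holds no coordinates, so positions and lengths are from GENCODE M21 on GRCm38, a different build, matched by symbol. Groups were taken from the labels.

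Genes were tested with edgeR 4.0.16 in R 4.3.3 (quasi-likelihood test, robust) after filterByExpr and TMM (factors 0.8734 to 1.077), with 6 group means over 48 libraries, and called at an adjusted p under 0.05 over 14431 genes. Of 12 comparisons, 9 were pairwise and 3 interactions. Standard errors are approximate, from the fold change and the F statistic. The design foresaw DESeq2 1.42.0, its size factors, no filter, no robust estimation, a replicate block, the compared groups alone, a fold threshold of 1, and leaving out single libraries. Fits without FeCon7 and FeCon9, without FeAAD5 and FeAAD9, without MaAAD7, without FeAAD2 and with Arntl as a covariate were added after seeing the data. The script was tested on simulated data. Reads carry no molecular identifiers, so counts are not independent molecules.

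Members and gene lists were chosen with earlier results of these data known. All members are named. Of each list of other pathway genes, up to 4 are named, those called in AAD against controls of both sexes with the largest mean absolute log2 fold change and a mean of at least 10 counts over all libraries. Timp2, Timp3, Timp4, Furin, Pcsk6, Vcan, Bgn, Dcn, Ncan and Adamts20 were added outside this rule, after their values were seen. Likeness is Pearson's r of log2(CPM + 1) after subtracting group means, and the 2 highest genes per member were taken. Library numbers did not pair the samples, since same-numbered libraries deviated together with mean r of -0.07 to 0.16 over the comparisons and each comparison had a pair below 0.1.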

Additional observations from a re-analysis of the deposited data

Results flagged for a closer look

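In each of 60 sets of values (10 members in 6 groups), the highest and the lowest library were compared with the rest of their group by Dixon's test at the 95% level, on log2(CPM + 1). Chance alone flags about 1 in 20 groups, and 2 values stood out. Adamts4 in MaCon5 was 0.914 CPM, against 4.42 CPM in the next lowest MaCon library, and MaCon5 also had the lowest Arntl of MaCon, at 1.62 CPM. Adamts10 in MaNonAD1 was 420 CPM, against 273 CPM in the next highest of the 4 MaNonAD libraries. MaNonAD1 also had the highest Adamts7 of its group, at 12.1 CPM.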

How the results depend on the processing

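Of the 11 member differences that passed in the fit of all libraries, 8 kept their direction and their call under all 17 alternative fits. The fold threshold of 1, which is no refit, is given apart below. The exceptions among these fits were Adamts15 in FeAAD against FeCon, Adamts9 in MaAAD against MaCon and Adamts12 in FeAAD against FeNonAD, all of which kept their direction. Adamts15 lost its call with no filter (adjusted p = 0.0501), without FeAAD2 (0.052), with a replicate block (0.0732), with the compared groups alone (0.135), without FeAAD5 and FeAAD9 (0.187), with Arntl as a covariate (0.191) and without FeCon7 and FeCon9 (0.655). Of the 17 fits, Adamts9 lost its call in that with the Arntl covariate (0.144), and Adamts12 in that of the compared groups alone (0.0937). Under the fold threshold these 3 and Adamts7 in FeAAD against FeCon (0.67) were not called.

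Counts of members called changed as follows. FeNonAD against FeCon went from 1 to 3 with the compared groups alone and with Arntl as a covariate, and to 2 without FeCon7 and FeCon9, without FeAAD5 and FeAAD9, and without FeNonAD8. MaNonAD against MaCon went from 0 to 1 with the compared groups alone (Adamts15) and with Arntl (Adamts12). FeAAD against FeCon went from 5 to 3 under the fold threshold of 1, and to 4 wherever Adamts15 lost its call except without FeAAD5 and FeAAD9, where Adamts8 was gained. MaAAD against MaCon went from 3 to 2 under the fold threshold. FeAAD against FeNonAD went from 1 to 0 with the compared groups alone and under the fold threshold, to 2 with Arntl, and to 3 without FeNonAD8, where Adamts4 (1.43, adjusted p = 0.0241) and Adamts7 (0.64, adjusted p = 0.0345) were added. MaAAD against MaNonAD went from 0 to 1 with Arntl. All calls gained with Arntl were of Adamts4 or Adamts12. As Arntl was chosen for its likeness to Adamts4, and Adamts12 is the member most like Adamts4, these calls are no tests of either. The cause of these changes was not tested. The replicate block left the count at 4 of the 5 members in FeAAD against FeCon and changed no other call. Differences that missed the threshold in both fits changed sign in 71 fits of 43 differences, among them Adamts4 in MaNonAD against MaCon, at -0.89, which was 0.92 with Arntl as a covariate. Leaving out single MaNonAD libraries changed no call of a member. It moved the count of all genes called in MaNonAD against MaCon from 90 to between 16 (without MaNonAD1) and 115 (without MaNonAD4), and in MaAAD against MaNonAD from 59 to 524 without MaNonAD1 and to 0 without any other MaNonAD library. With the Arntl covariate these counts were 276 and 431, with DESeq2 165 and 769, with its size factors 95 and 212, and without FeAAD5 and FeAAD9 210 and 1130. The second was 394 without FeNonAD8, and 0 without MaAAD7, without FeAAD2, without FeCon7 and FeCon9, with no filter, with the replicate block and with the compared groups alone, where the first was 274. Precision is limited by the 4 MaNonAD mice.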
